A study of Mus musculus with 6 samples.

Results

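Of the enzymes that make heme, 7 (Alas1, Alad, Uros, Urod, Cpox, Ppox and Fech) were followed here together with the mitochondrial carrier Slc25a38 and the mitochondrial ATP-binding cassette transporter Abcb10. These 9 genes were taken by name, and each matched 1 of the 54532 genes of the deposited table. The 3 si-NC libraries came from N2a (Neuro2A) cells given a control siRNA, and the 3 si-circRtn4 libraries from cells given si-circRtn4, an siRNA against circRtn4, the circular RNA spliced from exons 2 and 3 of Rtn4. N2a is a mouse neuroblastoma line, and the labels give the strain C57BL/6 and growth medium of MEM with 10% fetal bovine serum for both groups. The study's general methods describe siRNA at 100 nM over 24 h, followed by 10 μM retinoic acid over 48 h, so the cells can have been undifferentiated or differentiated. No untransfected library was analysed here, and the values show a difference between the groups without showing which of them departed from untreated cells.

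Heme synthesis starts and ends in the mitochondrion. Glycine, brought in by Slc25a38, is joined to succinyl-CoA by Alas1, the rate-limiting enzyme outside red cells. Alad, Uros and Urod act on the way to porphyrinogens in the cytosol, and the last steps of Cpox, Ppox and Fech return to the mitochondrion, where Fech inserts iron. Abcb10 sits in the mitochondrial inner membrane and is known for its part in heme synthesis of red cell precursors and in protection from oxidative stress. In neurons heme is needed by the respiratory chain, catalase and soluble guanylate cyclase.

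The siRNA and the microRNA that circRtn4 is studied with are shown because their seed sites were searched for in the 3′ UTRs of these genes. The siRNA is printed as the study lists it, with its guide taken as the reverse complement and the 7 bases that match the guide's seed in capitals. miR-24-3p is the RefSeq sequence (GRCm38.p6) with its seed in capitals. The promoter stretches (GRCm38.p6, RefSeq) hold the motif of the transcription factor NRF1 in capitals.
si-circRtn4: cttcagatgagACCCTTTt
miR-24-3p: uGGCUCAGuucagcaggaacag
Uros 3′ UTR, miR-24-3p site at chr7:133686524-133686530, minus strand: ctctcaaccaCTGAGCCataactccag
Abcb10 promoter, motif at chr8:123983145-123983154, minus strand: cctgagtgccGCGCATGCGCactccgccag
Uros promoter, motif at chr7:133709333-133709342, minus strand: cggtcacactGCGCCTGCGCgagtcccgcc
Alas1 promoter, motif at chr9:106247916-106247925, minus strand: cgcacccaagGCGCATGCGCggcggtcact

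Values are FPKM as deposited, fragment counts divided by gene length and by library depth. The deposited length can differ from that of an annotated transcript. It was 6174 bases for Alas1 and 2901 for Fech, whose transcripts with the longest 3′ UTR have 3089 and 6427. For Abcb10 both were 4306. Orders and ratios of level between genes therefore depend on the lengths used. Multiplying FPKM by gene length gave whole reads, 13541198 to 15122063 on genes per library. Of the neuroblastoma markers Phox2a, Hand2, Gata3, Isl1, Tubb3, Gap43 and Stmn2, 7 of 7 were at a mean of at least 1 FPKM, with summed levels of 1026 to 1162 FPKM in si-NC and 736 to 1055 FPKM in si-circRtn4. Of glial markers 1 of 6 reached that level, and of fibroblast, immune and hepatocyte markers 0 of 6, 0 of 5 and 0 of 4. Of 10 red cell markers 0 were at that level, and the globin genes Hba-a1, Hba-a2, Hbb-bs and Hbb-bt and the membrane gene Epb42 were at 0 in every library. The summed levels of the red cell list were 1.38 to 1.53 FPKM in si-NC and 0.635 to 1.33 FPKM in si-circRtn4, and whether they have a part in the differences below was not tested. Rtn4 itself had 61.0, 66.8 and 69.8 FPKM in si-NC and 50.1, 56.7 and 62.7 FPKM in si-circRtn4. These values per gene do not separate linear from circular RNA and leave the level of circRtn4 unread.

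Abcb10 stood apart from the other members. Its level was 46.1, 47.7 and 43.8 FPKM with si-NC and 18.3, 16.4 and 18.4 FPKM with si-circRtn4. The groups did not overlap, and the highest si-circRtn4 library lay far below the lowest si-NC library. The means were 45.9 ± 1.96 and 17.7 ± 1.14 FPKM (SD, n = 3 each), a level with si-circRtn4 of 38.6% of that with si-NC. Within pairs of the same replicate number it was 39.7%, 34.4% and 42.1%. These values rest on 1099 to 2997 recovered reads. On the log2(FPKM + 1) scale the difference was -1.33 (standard error 0.077), which ranked 36th from the lowest of the 12749 genes tested, those at or above 1 FPKM on average. The list was put together with the results of this contrast known and Abcb10 was named in its title, so this difference and those of the other 8 genes describe the libraries and carry no p-value. Over 14 alternatives of scale, filter and libraries the difference of Abcb10 lay between -1.37 and -1.26. In bulk RNA a lower level in each cell and a smaller share of cells that hold the transcript cannot be told apart.

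**Figure D1:**
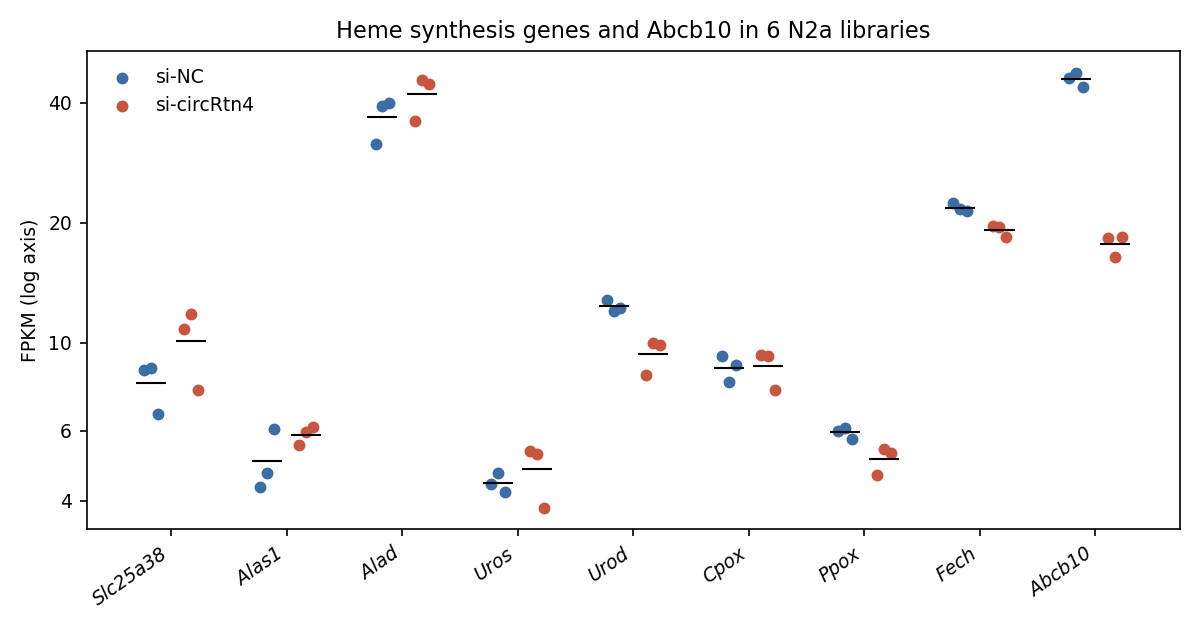
FPKM (log axis) of the 9 genes in each of 3 si-NC (blue) and 3 si-circRtn4 (red) libraries, in pathway order with the transporters at the ends. Points are libraries and black lines are means, and Abcb10 at 43.8 to 47.7 against 16.4 to 18.4 FPKM is the widest gap.

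Slc25a38, the glycine carrier, and Alas1 open the pathway. Slc25a38 was at 8.51, 8.63 and 6.61 FPKM in si-NC and at 10.8, 11.8 and 7.59 FPKM in si-circRtn4. Replicate 3 was the lowest library of both groups, the ranges overlapped, and within pairs the values with si-circRtn4 were 127%, 137% and 115% of those with si-NC. Its means were 7.92 ± 1.14 and 10.1 ± 2.20 FPKM (SD, n = 3 each), a log2 difference of 0.30 (standard error 0.16). Alas1 was at 4.34, 4.71 and 6.06 FPKM in si-NC and at 5.52, 5.94 and 6.12 FPKM in si-circRtn4. The si-NC libraries were spread more widely than the si-circRtn4 libraries, with a coefficient of variation of 18.1% against 5.22%, and the ranges overlapped. The log2 difference of Alas1 was 0.19 (standard error 0.12).

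Alad, which forms the pyrrole ring of porphobilinogen, had the highest FPKM of the enzymes. It was at 31.4, 39.3 and 39.99 FPKM in si-NC and at 36.0, 45.6 and 44.7 FPKM in si-circRtn4. Replicate 1 was the lowest of each group, the ranges overlapped, and within pairs the values with si-circRtn4 were 115%, 116% and 112% of those with si-NC. The log2 difference was 0.19 (standard error 0.13). Uros, which closes the porphyrin ring, was at 4.41, 4.69 and 4.22 FPKM in si-NC and at 5.33, 5.25 and 3.85 FPKM in si-circRtn4. The si-circRtn4 libraries lay on both sides of the si-NC libraries, and the log2 difference was 0.085 (standard error 0.12).

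Urod, which removes carboxyl groups from the ring's side chains, was at 12.8, 12.02 and 12.2 FPKM in si-NC and at 8.30, 9.97 and 9.88 FPKM in si-circRtn4. The groups did not overlap, and the si-circRtn4 mean of 9.38 ± 0.937 FPKM was 76.1% of the si-NC mean of 12.3 ± 0.384 FPKM (SD, n = 3 each). Its log2 difference of -0.36 (standard error 0.086) was the largest among the enzymes. When 1 library was left out it lay between -0.41 and -0.29.

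Of the last enzymes, Cpox, Ppox and Fech, the latter pair was separate between the groups. Cpox, which works in the intermembrane space, was at 9.23, 7.94 and 8.77 FPKM in si-NC and at 9.33, 9.23 and 7.61 FPKM in si-circRtn4. The ranges overlapped almost wholly, with a log2 difference of 0.0082 (standard error 0.098). Ppox, which oxidises the ring to protoporphyrin, was at 6.00, 6.10 and 5.73 FPKM in si-NC and at 4.64, 5.39 and 5.27 FPKM in si-circRtn4. Fech was at 22.4, 21.7 and 21.4 FPKM in si-NC and at 19.7, 19.5 and 18.4 FPKM in si-circRtn4. Neither Ppox nor Fech overlapped between the groups, at 85.8% and 88.0% of the si-NC mean. Their log2 differences were -0.19 (standard error 0.082) for Ppox and -0.18 (standard error 0.067) for Fech. After rescaling to TPM the difference of Fech was -0.091, where the median over all genes tested was 0.0895. As TPM without the gene Gm23935 the difference of Fech was -0.161, with a median over all genes of 0.0233.

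Alas2, the red cell form of the first enzyme, was at 0.744 to 1.22 FPKM in si-NC and 0.468 to 1.02 FPKM in si-circRtn4, with a mean below the filter of 1 FPKM.

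**Figure D2:**
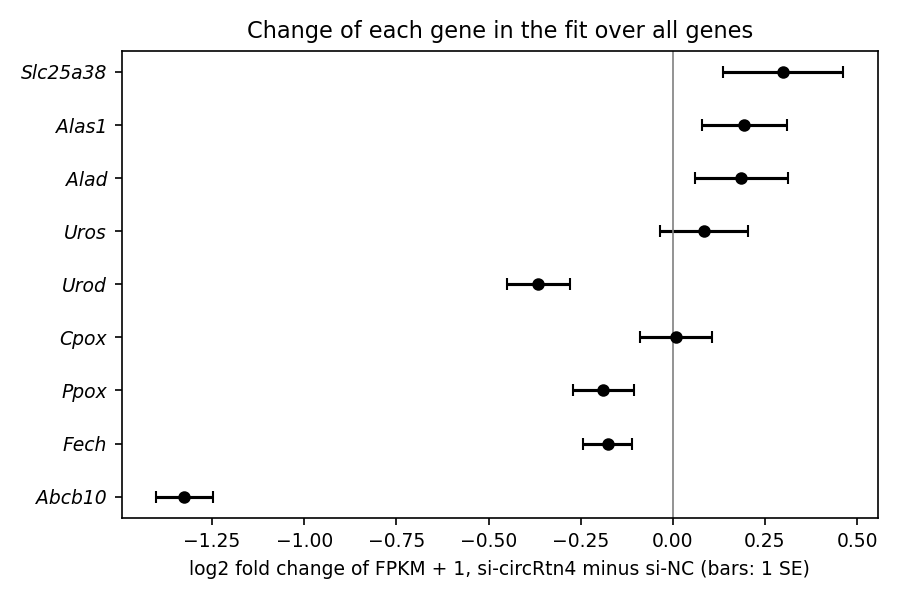
Difference of each gene between si-circRtn4 and si-NC on the log2(FPKM + 1) scale (horizontal axis), with bars of 1 standard error from the limma fit over all genes. Abcb10 lies at -1.33, and the other genes lie between -0.36 for Urod and 0.30 for Slc25a38.

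All 9 members passed the filter. Of these, 5 had a positive and 4 a negative difference, with a median of 0.0082 beside 0.0020 over all genes tested. The 4 negative ones (Abcb10, Urod, Ppox and Fech) were those whose groups did not overlap, where 15.5% of all genes tested were lower and 16.2% higher without overlap. At a Benjamini-Hochberg adjusted p under 0.05 in limma, 2 of the 9 (Abcb10 and Urod) were lower and 0 higher, beside 4.82% and 4.36% of all genes tested. In each of the 6 fits without 1 library the count was 1, Abcb10, and it was also 1 after rescaling to TPM and with all detected genes tested. As TPM without Gm23935 it was 2. With replicate number as a block it was 3, with Slc25a38 higher in addition. Since the members were chosen on this contrast, these counts were not read further.

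In si-NC the order of FPKM, on the deposited gene lengths, was Abcb10, Alad, Fech, Urod, Cpox, Slc25a38, Ppox, Alas1 and Uros. The ranges of Cpox and Slc25a38 overlapped, as did those of Ppox and Alas1 and of Alas1 and Uros, and the other neighbours were separate. In si-circRtn4 Abcb10 took the third place, after Alad and Fech, with a range that overlapped that of Fech. Slc25a38 at 10.1 FPKM then stood before Urod at 9.38 FPKM, again with overlapping ranges, and Alas1 before Ppox with separate ones. Urod and Cpox overlapped there too, as did Ppox and Uros. The FPKM of Abcb10 was 7.22 to 10.6 times that of Alas1 in the si-NC libraries and 2.76 to 3.31 times in the si-circRtn4 libraries. The size of this ratio and the shares below depend on the deposited lengths. The summed level of the 7 enzymes was 90.6 to 98.3 FPKM in si-NC and 88.8 to 101 FPKM in si-circRtn4. Alad made up 34.7% to 40.7% of this sum in si-NC and 40.6% to 46.7% in si-circRtn4, and Alas1 made up 4.79% to 6.17% and 5.89% to 6.38%.

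Abcb10 lies on the minus strand of chromosome 8 from 123952459 to 123983122 (GRCm38) and has 13 exons in its annotated transcript of 4306 bases. The noncoding antisense gene Gm45890 overlaps it over 6477 bases and was at 0.427 to 0.670 FPKM in si-NC and 0.302 to 0.586 FPKM in si-circRtn4. The gene model Gm20388 on the other strand spans the whole of Abcb10 and was at 0 in every library. The strand setting of the counting is not given in the sources used here, so reads of such pairs cannot be told apart. The same holds for Uros, which shares 740 bases with Bccip, and for Ppox, which shares 907 bases with B4galt3. The nearest tested protein-coding genes on both sides of Abcb10 were taken by position, after the values of Abcb10 had been seen. Nup133, a nuclear pore subunit 3194 bases away, had a log2 difference of -0.13 (adjusted p = 0.580 from limma). Taf5l, a subunit of histone acetyltransferase complexes 13196 bases away, was at 23.6, 24.3 and 22.8 FPKM in si-NC and at 33.7, 32.4 and 27.7 FPKM in si-circRtn4. It rose by 0.39 on the log2 scale (standard error 0.089, adjusted p = 0.0365 from limma). This call was lost in 5 of the 6 fits without 1 library (adjusted p from 0.0281 to 0.115 over these fits), which were those without si-NC replicate 1, 2 or 3 or si-circRtn4 replicate 1 or 2. Beside Urod, the flanking gene Zswim5 fell by 0.52 on the log2 scale (standard error 0.080, adjusted p = 0.0106 from limma, and 0.0521 without si-NC replicate 2). Hectd3 on its other side did not pass the test at -0.16 (adjusted p = 0.241 from limma).

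The genes whose pattern was most like that of Abcb10 were sought among 10782 other protein-coding genes by Pearson's r of log2(FPKM + 1) over the 6 libraries, where most of r reflects the difference between the groups. Rpp25 (r = 0.9996, a subunit of ribonucleases P and MRP), Grap2 (0.999, an adaptor of T cell signalling), Tspan18 (0.998, a tetraspanin), Peg3 (0.998, an imprinted zinc finger gene) and Cnrip1 (0.998, a partner of the cannabinoid receptor) came first, and 330 genes had an r over 0.95. Since they were picked for likeness to Abcb10, that all 5 were lower in si-circRtn4 was fixed by the choice and was given no test. On the log2(FPKM + 1) scale their differences ran from -1.38 for Cnrip1 to -0.52 for Tspan18. The added 1 shrinks differences of genes with low FPKM. Grap2, at 1.91, 1.99 and 1.76 FPKM in si-NC and 0.203, 0.113 and 0.308 FPKM in si-circRtn4, had -1.26 on this scale. With 0.1 added it had -2.74, and Cnrip1 had -1.58. Rpp25 went from 37.6, 38.1 and 37.1 FPKM to 24.7, 23.1 and 24.7 FPKM. Cnrip1 went from 10.5, 10.8 and 10.5 FPKM to 3.39, 3.21 and 3.83 FPKM.

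**Figure D3:**
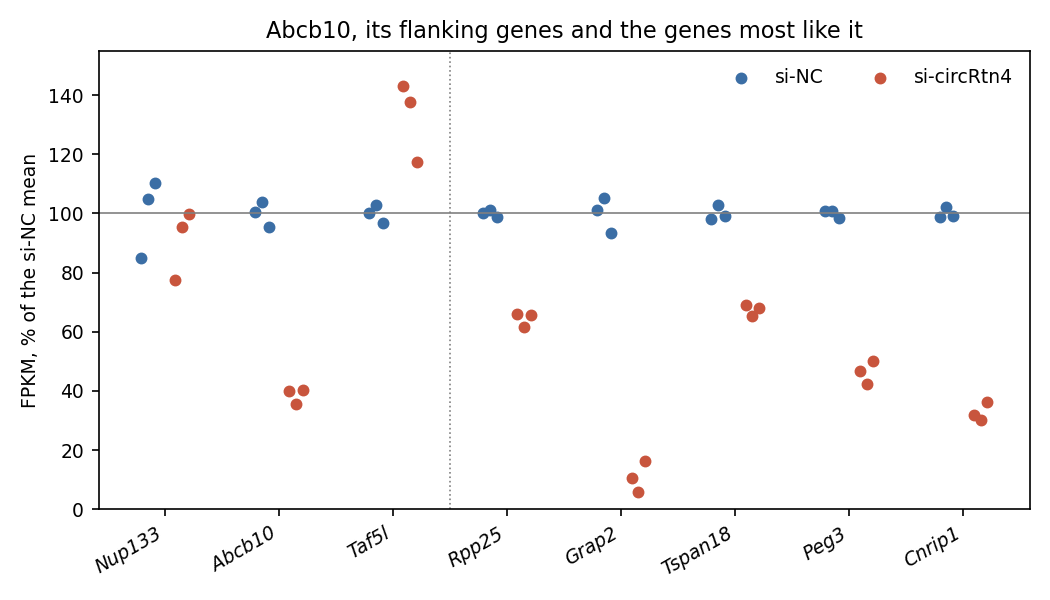
FPKM of each library as a percentage of the si-NC mean of the same gene (vertical axis), for Abcb10 between its flanking genes (left of the dotted line) and the 5 genes most like it over the 6 libraries (right), si-NC in blue and si-circRtn4 in red. The si-circRtn4 libraries of Abcb10 lie near the mean of 38.6%, those of Taf5l above and those of Nup133 at or below the si-NC mean.

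Around the pathway, 8 lists and Alas2, 119 gene symbols in all, were looked up. Of these, 117 were found and 95 genes passed the filter. At an adjusted p under 0.05 in limma 7 of these rose and 5 fell, which is 12.6% beside 9.19% of all genes tested. The lists were chosen with earlier results of these data known. This share and the adjusted p-values of listed genes here and below therefore describe the libraries and are no independent test. The median difference of the 95 genes was -0.027 on the log2 scale beside 0.0020 over all genes. Over all genes 556 rose and 615 fell. After rescaling to TPM 972 genes rose and 393 fell, with 12 rising and 5 falling in the lists. The gene Gm23935 held 20.1% to 20.7% of the summed FPKM in si-NC and 13.5% to 18.8% in si-circRtn4. As TPM without Gm23935, 592 genes rose and 538 fell, with 7 rising and 6 falling in the lists. With replicate number as a block 11 of the listed genes rose and 13 fell. Of the 12 genes called, Fam210b kept its call in all 14 alternatives and Hebp2 in the 13 that tested it, as its mean was below the filter of 5 FPKM in the other one. The other 10 lost their call when all detected genes were tested.

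The list of heme breakdown, transport and export held calls in both directions. Hmox1, the oxygenase that opens the heme ring, was at 21.6, 18.1 and 23.8 FPKM in si-NC and at 38.7, 49.9 and 32.3 FPKM in si-circRtn4. It rose 1.91-fold in the means, by 0.89 on the log2 scale (standard error 0.16, adjusted p = 0.0192 from limma), with all si-circRtn4 libraries above all si-NC libraries. The call was lost without si-NC replicate 2 (adjusted p = 0.0667) and without si-circRtn4 replicate 1 (adjusted p = 0.0589). Blvra, a biliverdin reductase, did not pass the test at 4.12 ± 0.262 and 5.29 ± 0.715 FPKM (SD, n = 3 each, adjusted p = 0.132 from limma). Blvrb, the other biliverdin reductase, rose from 8.17 ± 1.35 to 13.02 ± 0.505 FPKM (SD, n = 3 each), with an adjusted p of 0.0164 in limma. Leaving out replicate 2 of either group or replicate 3 of si-NC lost the call of Blvrb (adjusted p up to 0.0643). Hebp2, a heme-binding protein, fell from 4.88 ± 0.559 to 2.62 ± 0.174 FPKM (SD, n = 3 each), by 0.70 on the log2 scale (adjusted p = 0.00906 from limma). Of the 9 genes of this list that were tested, 2 rose, 1 fell and 6 did not pass.

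Among 13 tested mitochondrial carriers and partners of heme synthesis 1 rose and 1 fell. Fam210b, an inner membrane protein linked to iron supply for heme in red cell precursors, was at 11.8, 8.95 and 9.23 FPKM in si-NC and at 3.95, 3.53 and 3.35 FPKM in si-circRtn4. It fell by 1.25 on the log2 scale (standard error 0.11, adjusted p = 0.00237 from limma), the largest change in these lists, and the groups were far apart. Lonp1, a matrix protease that degrades Alas1, rose from 92.4 ± 10.2 to 128 ± 5.69 FPKM (SD, n = 3 each), with an adjusted p of 0.0255 in limma that was at most 0.0901 in the 4 fits in which the call was lost. These were the fits without si-NC replicate 2 or any 1 si-circRtn4 library.

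Iron storage, iron-sulfur cluster assembly and heme-using proteins held the other calls. Fth1, the ferritin heavy chain, rose from 424 ± 31.7 to 594 ± 75.6 FPKM (SD, n = 3 each, adjusted p = 0.0435 from limma), as 1 of 12 tested iron genes. Tfrc, the receptor that takes up iron-loaded transferrin, was at 44.9, 75.6 and 72.1 FPKM in si-NC and at 47.2, 71.4 and 68.2 FPKM in si-circRtn4 (adjusted p = 0.955 from limma), so that replicate 1 was low in both groups. Nfu1 and Bola1, which act late in iron-sulfur cluster assembly, rose by 0.42 and 0.52 on the log2 scale (adjusted p = 0.0210 and 0.0236 from limma), as 2 of 19 tested genes. Of 19 tested heme-using proteins 1 rose and 3 fell. Catalase (Cat) rose by 0.50 on the log2 scale (adjusted p = 0.0298 from limma). Sdhd, a membrane subunit of respiratory complex II, fell by 0.44 (adjusted p = 0.0206 from limma). Gucy1a1 and Gucy1b1, the subunits of soluble guanylate cyclase, fell by 0.64 and 0.43 on the log2(FPKM + 1) scale (adjusted p = 0.0288 and 0.0224 from limma). Gucy1a1 went from 1.94 ± 0.0644 to 0.900 ± 0.215 FPKM (SD, n = 3 each), where the added 1 shrinks the difference. With 0.1 added it was -1.05. Each of the 7 calls of Fth1, Nfu1, Bola1, Cat, Sdhd, Gucy1a1 and Gucy1b1 was lost when 1 of several libraries was left out. For Fth1, Cat and Gucy1a1 this held for any si-NC library and si-circRtn4 replicates 1 and 2 (adjusted p up to 0.136, 0.0995 and 0.0933). Fth1 also lost its call after quantile normalization (adjusted p = 0.0908 from limma). For Gucy1b1 it held for si-NC replicates 2 and 3 and any si-circRtn4 library (up to 0.0735), and for Nfu1 for si-NC replicate 2 and any si-circRtn4 library (up to 0.0808). For Bola1 it held for replicates 2 and 3 of both groups (up to 0.0881), and for Sdhd for si-NC replicates 2 and 3 and si-circRtn4 replicates 1 and 3 (up to 0.0850).

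**Figure D4:**
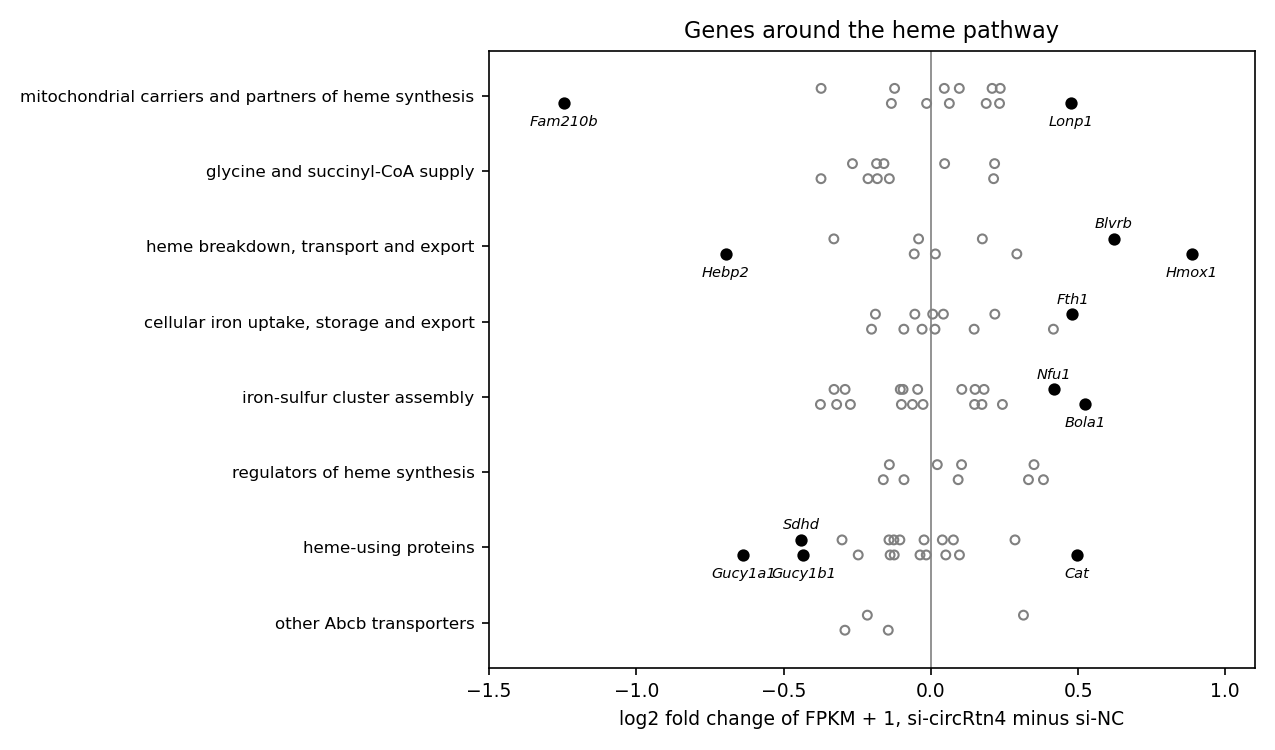
Difference between si-circRtn4 and si-NC on the log2(FPKM + 1) scale (horizontal axis) of each tested gene in 8 lists around the heme pathway (vertical axis), with genes at an adjusted p under 0.05 in limma filled and named. Filled points lie on both sides of 0, 7 above and 5 below, with Fam210b lowest at -1.25 and Hmox1 highest at 0.89.

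In the list of regulators of heme synthesis 0 of 9 tested genes passed the test, beside 9.19% of all genes tested. The groups did not overlap for 3 higher and 2 lower genes of the list, beside 16.2% and 15.5% of all genes tested. The higher ones were Nfe2l2, Nr1d1 and Hif1a (adjusted p = 0.0599, 0.0673 and 0.129 from limma), and the lower ones Nrf1 and Eif2ak1. Nrf1 went from 4.75, 4.60 and 4.92 FPKM to 4.59, 4.22 and 4.41 FPKM (adjusted p = 0.509 from limma). Bach1, the heme-sensing repressor of Hmox1, had a log2 difference of 0.093 (adjusted p = 0.644 from limma), and Eif2ak1, the heme-regulated kinase, one of -0.16 (adjusted p = 0.238 from limma). Ppargc1a, the coactivator that drives Alas1 in liver, was at 0 to 0.0434 FPKM in all libraries. Among 10 tested genes of glycine and succinyl-CoA supply and 4 other Abcb transporters 0 passed, beside 9.19% of all genes tested. At an unadjusted p under 0.05, a looser threshold, limma gave 1675 higher and 1630 lower over all genes tested.

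Promoters of 8 of the 9 members were in the RefSeq table (250 bases before to 50 after a start site), and a gene with several start sites counted when any of them held the motif. On either strand, the NRF1 motif occurred in 3 of them (Alas1, Uros and Abcb10), where 5.19% of 27025 genes held it. In Abcb10 it begins 32 bases before the start site. The shares over all genes count every gene with a promoter, tested or not, and were not adjusted for base content. The promoters with the NRF1 motif had a GC content of 62% (Abcb10), 65.3% and 73.3% (Alas1) and 60.3% (Uros), beside a median of 52.7% over all promoters. The E-box CACGTG occurred in 3 (Alad, Uros and Urod) where 8.09% of genes held it, and the GC box GGGCGG in 6 where 38.2% did. The antioxidant response element TGACNNNGC was in the window of Slc25a38 and the GATA letters AGATAA in that of Cpox, with shares of 14% and 12.7% over all genes. The CCAAT box occurred in 3 (Alad, Urod and Ppox) where 41.1% of genes held it. The cAMP response element and the C/EBP-ATF composite motif occurred in 0 of the 8, where 2.03% and 1.03% of genes held them. In the longest annotated 3′ UTRs, the 7-base miR-24-3p site CTGAGCC was in 1 of the 9 members (Uros), where 19.6% of 10694 tested genes held it. The guide seed site ACCCTTT of si-circRtn4 was in 1 (Fech, in a stretch beyond the end of the gene in the deposited table), where 12.5% did. The 3′ UTR of Abcb10, 1849 bases long, held neither. These matches are descriptions of letters and not of bound sites.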

How the data were processed

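RNA of 6 N2a libraries was analysed, 3 per group as the sample labels assign them. The table that the authors deposited gives FPKM, length and coordinates of each gene. Its aligner, counter and strand setting are not given in the sources used here. The submitters' processing notes name Bowtie 0.12.2, mm8 and mm9 with no role, whereas 98.1% of the 54532 genes had the coordinates of GENCODE M21 (GRCm38). Another 6 columns of the table belong to other samples and were not used. FPKM times gene length was a whole multiple of 1 step (tolerance 0.001) for 100% of the values.

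Genes averaging 1 FPKM or more over the libraries (12749) were fitted as log2(FPKM + 1) by lmFit and eBayes (trend) of limma 3.58.1, run in R 4.3.3, and p-values were adjusted by Benjamini-Hochberg over all of them. Nothing says that the libraries came from separate cultures, so p-values measure only the spread between these libraries, which may be technical. The fit was run on simulated independent libraries with 200 genes changed 2-fold at a dispersion of 0.01. This checks the code and not smaller changes or libraries that deviate together. Both groups carry replicate numbers 1 to 3 in the labels. Same-numbered libraries deviated together (r = 0.331, 0.19 and 0.226), so a blocked fit used these pairs, which are a hint from the data. Alternatives were a pseudocount of 0.1, all detected genes, a filter of 5 FPKM, TPM with and without Gm23935, quantile normalization, limma-voom with TMM factors on the recovered reads, and each library left out.

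The members and lists were chosen with earlier results of these data known. Genes named were the members, Rtn4, a few fixed genes of the wider lists, per list the 4 largest called changes whose groups did not overlap, and the 5 genes most like Abcb10, and flanking genes were added by position. Blvra and the regulators whose groups did not overlap were added after their values had been seen. Some items are not reported here. Mmut and Fdx2 were not found under these symbols. Tables and plots were made in Python 3.11.15 (pandas 2.3.3, matplotlib 3.10.9).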

Additional observations from a re-analysis of the deposited data

How the results depend on the processing

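Abcb10 was lower in si-circRtn4 under all 14 alternatives. With all detected genes tested, 210 genes rose and 261 fell, and of the listed heme and iron genes 0 rose and 2 fell, where more genes enter the adjustment. With replicate number as a block 1185 rose and 1243 fell, with 11 and 13 among the listed genes. After rescaling to TPM 972 rose and 393 fell, with 12 listed genes rising, and limma-voom on recovered reads had 8 listed genes falling. As TPM without Gm23935, 592 genes rose and 538 fell, with 7 and 6 among the listed genes. Without 1 library, 163 to 407 genes rose and 217 to 419 fell, with 0 to 5 listed genes rising and 2 to 4 falling, and the lowest counts were those without si-NC replicate 2. The cause was not tested. Differences that had not passed the threshold changed sign for Tfrc, at 0.063 as TPM and from -0.26 to 0.15 without 1 library (0.10 and 0.071 on leaving out replicates 2 and 3 of si-NC, 0.15 on leaving out si-circRtn4 replicate 1). Bach1 lay between -0.0091, on leaving out si-circRtn4 replicate 1, and 0.17 without 1 library. Cpox lay between -0.045 and 0.098. The block changed the call of Rtn4 (adjusted p = 0.0447 from limma). Depth limits Uros most, at 200 to 292 reads per library.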
